A study of Homo sapiens with 8 samples.

Results

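The type III interferon genes IFNL1 and IFNL3 and the interferon-stimulated genes RSAD2 and XAF1 were followed through 3 deposited comparisons of brazilin compounds with untreated MDA-MB-231 cells, a long-established human line of triple-negative breast cancer. They were taken by gene symbol, and all 4 of the 4 genes were found, out of 2998 genes in the 3 tables together. All 4 stand in the table for unmodified brazilin, and none in the tables for acetylated or methylated brazilin. RNA came from 8 samples in 4 groups of 2: untreated cells cultured for 48 h, and cells given brazilin, its methylated form or its acetylated form at 20 µM for 48 h, with daily renewal. Brazilin is the phenolic compound behind the red dye of sappanwood and brazilwood. All groups are the same cell line, and the sources used here do not say whether solvent was added to the untreated cells.

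Type III interferons are secreted proteins that cells, epithelial cells above all, make after sensing viral nucleic acid or after activation of interferon regulatory factors and NF-kB. They bind a receptor of IFNLR1 and IL10RB, whose kinases JAK1 and TYK2 pass the signal to the nucleus, where interferon-stimulated genes are switched on through a DNA element called ISRE. RSAD2 encodes viperin, a radical SAM enzyme that makes a chain-terminating nucleotide against viral polymerases. XAF1 encodes a protein that binds XIAP, an inhibitor of apoptosis, and is itself induced by interferon.

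IFNL1, IFNL2 and IFNL3 lie within a short stretch of chromosome 19 (RefSeq, GRCh38.p14). IFNL3 is at chr19:39243455-39245250 on the minus strand. IFNL2 at chr19:39268396-39270188 and IFNL1 at chr19:39296407-39298673 are both on the plus strand. IFNL4, a transcribed pseudogene in RefSeq, lies between IFNL3 and IFNL2 at chr19:39246314-39248856 and was not listed with brazilin. RSAD2 lies at chr2:6865885-6898239 and XAF1 at chr17:6755447-6775647, both on the plus strand. The windows from 250 bases before to 50 bases after their RefSeq transcript starts are shown because the ISRE is the element through which interferon acts and because IFNL2 and IFNL3 are near copies. Capitals mark matches to the ISRE core GAAANNGAAA or to the closer repeat GAAANGAAA, on either strand, with overlapping matches merged into 1 run.
IFNL1, chr19:39296157-39296456, plus strand: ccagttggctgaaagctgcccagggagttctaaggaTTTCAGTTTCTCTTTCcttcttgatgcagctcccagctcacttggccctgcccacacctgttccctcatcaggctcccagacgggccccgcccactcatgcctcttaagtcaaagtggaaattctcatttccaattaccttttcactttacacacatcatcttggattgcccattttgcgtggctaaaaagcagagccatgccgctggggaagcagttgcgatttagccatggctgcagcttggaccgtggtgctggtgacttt
IFNL2, chr19:39268146-39268445, plus strand: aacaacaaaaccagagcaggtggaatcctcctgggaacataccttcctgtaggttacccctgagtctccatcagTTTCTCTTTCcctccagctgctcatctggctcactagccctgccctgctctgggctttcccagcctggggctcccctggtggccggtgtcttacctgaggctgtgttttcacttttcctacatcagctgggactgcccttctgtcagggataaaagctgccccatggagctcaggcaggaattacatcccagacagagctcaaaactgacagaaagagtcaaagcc
IFNL3, first start, chr19:39245201-39245500, minus strand: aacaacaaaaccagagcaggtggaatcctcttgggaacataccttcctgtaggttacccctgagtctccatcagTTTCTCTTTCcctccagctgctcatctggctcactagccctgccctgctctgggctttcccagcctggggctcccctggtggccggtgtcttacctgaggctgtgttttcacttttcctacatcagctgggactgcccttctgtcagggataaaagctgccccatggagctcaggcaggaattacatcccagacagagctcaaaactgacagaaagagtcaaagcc
RSAD2, first start, chr2:6865635-6865934, plus strand: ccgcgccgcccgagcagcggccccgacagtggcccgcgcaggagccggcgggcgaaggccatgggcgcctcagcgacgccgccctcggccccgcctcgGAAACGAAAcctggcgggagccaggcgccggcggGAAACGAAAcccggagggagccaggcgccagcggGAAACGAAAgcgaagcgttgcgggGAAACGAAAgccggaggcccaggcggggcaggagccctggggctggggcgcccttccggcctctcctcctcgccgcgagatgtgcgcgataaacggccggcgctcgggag
RSAD2, second start, chr2:6877527-6877826, plus strand: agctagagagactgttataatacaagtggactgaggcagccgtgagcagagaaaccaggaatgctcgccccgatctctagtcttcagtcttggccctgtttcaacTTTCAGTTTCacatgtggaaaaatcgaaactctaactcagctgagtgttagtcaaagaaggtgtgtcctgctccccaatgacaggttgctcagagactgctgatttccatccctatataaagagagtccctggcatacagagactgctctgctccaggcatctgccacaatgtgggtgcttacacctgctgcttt
XAF1, first start, chr17:6755796-6756095, plus strand: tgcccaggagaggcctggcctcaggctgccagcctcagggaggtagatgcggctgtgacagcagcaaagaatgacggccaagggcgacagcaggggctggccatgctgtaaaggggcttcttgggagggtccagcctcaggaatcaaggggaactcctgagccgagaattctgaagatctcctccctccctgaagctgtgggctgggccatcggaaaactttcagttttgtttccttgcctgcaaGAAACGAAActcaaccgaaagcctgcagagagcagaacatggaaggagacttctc

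The IFNL1 window holds a pair of overlapping matches to the ISRE core, from -214 to -199 relative to the transcript start. IFNL2 and the first start of IFNL3 hold 1 each, from -176 to -167. Their windows are the same in 299 of 300 bases, and the single difference is C31T, counted from 1 at the 5′ end of the window, with the IFNL2 base first. The second start of RSAD2 holds 1 ISRE core from -145 to -136. Its first start holds none but has 4 matches to GAAANGAAA, and the first start of XAF1 has 1 such match across the transcript start itself. The other start of IFNL3 and the other start of XAF1 hold neither. ISRE core matches were found in 3.57% of 35116 windows of this length, and GAAANGAAA in 3.12%. An NF-kB consensus match, present in 11.3% of all windows, was found in IFNL2 and IFNL3 from -110 to -101 and in the first XAF1 window from -103 to -94. The GAS motif TTCNNNGAA, present in 7.66% of windows, was found in no window of these genes. A match shows only that these letters are present.

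**Figure D1:**
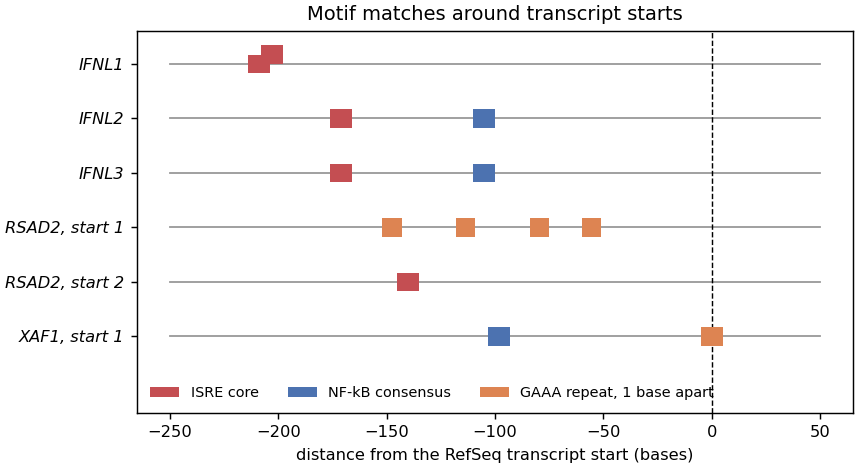
Matches to the ISRE core, to the closer GAAA repeat and to an NF-kB consensus, by distance in bases from the RefSeq transcript start (dashed line), in 1 row per window. IFNL2 and IFNL3 have the same 2 matches, and the 4 closer repeats of RSAD2 all lie at its first start.

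Each deposited table gives only genes that passed the authors' test. For every gene it holds group means in FPKM (fragments scaled to transcript length and to the mapped fragments of the library), the log2 fold change and its q-value. All levels, fold changes and q-values below come from the authors' deposited table, that of brazilin where no other compound is named. Values per sample and read totals were not part of the files used here, so the depth is unknown and the overlap of the samples of 2 groups cannot be read. The labels do not say whether a group's 2 samples were separate cultures, so the q-values rest only on how far these samples differ, and that spread may be technical. The 95% intervals come from a standard error derived from the q-value, which is an upper bound for a Wald test without shrinkage. The brazilin table lists 2885 genes, 2867 of them among the 20052 protein-coding genes of the RefSeq table (14.3%). That share counts every protein-coding gene, whether or not these cells express it, so it is a low baseline for lists of expressed genes. Among listed genes, 47.6% had a higher level than in untreated cells and 52.4% a lower one. Values under 1 FPKM count as low wherever they are given, and 0.01 FPKM is the lowest value any table lists. In bulk RNA, a change in the number of cells that express a gene and a change in RNA per cell cannot be told apart.

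Among the 3 interferon genes with a value, IFNL1 had the highest level after brazilin. In the authors' deposited table its group mean was 0.05 FPKM in untreated cells, a low value, and 3.32 FPKM with brazilin. If no sample lay under the lowest listed value, neither untreated sample exceeded 0.09 FPKM, and at least 1 brazilin sample reached 3.32 FPKM. IFNL1 rose by 5.95 on the log2 scale (interval 3.62 to 8.27, q = 5.63e-07), or 61.6-fold with an interval of 12.3 to 310. The ratio of the FPKM means was 66.4. The size depends on how the low untreated level is treated: with a pseudocount of 0.1 FPKM the log2 difference was 4.51, and with 1 FPKM it was 2.04. Counted from the largest rise in log2 fold change down, IFNL1 ranked 9 among the 2885 listed genes, whereas by q-value it ranked 1766. Over the full 857 bases of its longest annotated transcript, 3.32 FPKM amounts to about 2.85 fragments in 1000000 mapped, and 0.05 FPKM to 0.0429. The length behind the authors' FPKM is not known, so these fragment numbers are approximate. The change of IFNL1 thus has a wide interval, and it starts from very few fragments.

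IFNL3 stayed at a low level in both groups. Untreated cells had the lowest value, 0.01 FPKM, and brazilin-treated cells 0.455 FPKM, under 1 FPKM in each. Over the full 734 bases of its longest transcript, the 0.455 FPKM correspond to about 0.334 fragments in 1000000, again approximate. On the same assumption about the lowest value, no brazilin sample can have held more than 0.9 FPKM. IFNL3 was called higher (q = 0.00289), and the deposited log2 fold change of 5.92 (interval 2.03 to 9.82) rests on the lowest listed value and is not read as a size. Altogether 50 genes that the brazilin table lists as higher were at 0.01 FPKM in untreated cells, with a median of 0.155 FPKM after brazilin, and 44 of them were below IFNL3 there.

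IFNL2, which is outside the chosen genes but in the fixed list of interferon genes, also started from 0.01 FPKM and was listed at 0.28 FPKM after brazilin (q = 0.0226), both low values. The coding sequences of IFNL2 and IFNL3 are both 603 bases long and differ at 11 positions, an identity of 98.2% in GENCODE release 29. Fragments from either gene may therefore have been assigned to the other, and the separate levels of IFNL2 and IFNL3 are uncertain. IFNL1 is identical to IFNL3 at 74.9% of alignment columns, with gaps counted as differences, and has no near-identical copy. Summed over IFNL1, IFNL2 and IFNL3 the level was 0.07 FPKM in untreated cells and 4.055 FPKM with brazilin, of which IFNL1 made up 81.9%. Per length, IFNL1 stood 7.30 times above IFNL3 after brazilin. Of 22 fixed genes of type I, II and III interferons these 3 were listed (13.6%, near the 14.3% over all protein-coding genes), and the others, the interferon alpha, beta and gamma genes included, have no value here. All 3 were higher, but a called gene at such a low untreated level can hardly be anything else: of 149 listed genes under 0.1 FPKM in untreated cells 148 were higher.

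RSAD2 was detected above 1 FPKM in both groups and rose with brazilin. The group means were 1.76 FPKM in untreated cells and 3.825 FPKM with brazilin in the authors' deposited table. RSAD2 rose by 1.03 on the log2 scale (interval 0.70 to 1.36, q = 1.13e-09), a 2.04-fold change. It was among the 18.5% of listed genes that were at least 2-fold higher. CMPK2, which encodes a nucleotide kinase that supplies the substrate of viperin, overlaps RSAD2 by 751 bases on the opposite strand. CMPK2 was not in any of the tables and so has no value here, and the sources used here do not say whether the counting used strand.

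XAF1 fell in the same comparison. Its group means were 5.91 FPKM in untreated cells and 3.17 FPKM with brazilin, both above 1 FPKM. XAF1 fell by 1.01 on the log2 scale (interval -1.27 to -0.74, q = 1.48e-13), to 0.498 times the untreated level. By this value it was among the 9.6% of listed genes that were at least 2-fold lower, but the ratio of its FPKM means was 0.536 (log2 -0.90), short of 2-fold. An uncharacterised non-coding gene overlaps XAF1 by 4637 bases on the opposite strand, and reads from that stretch cannot be assigned without strand. In untreated cells XAF1 stood 3.36 times above RSAD2 in FPKM, and with brazilin it stood at 0.829 times RSAD2.

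**Figure D2:**
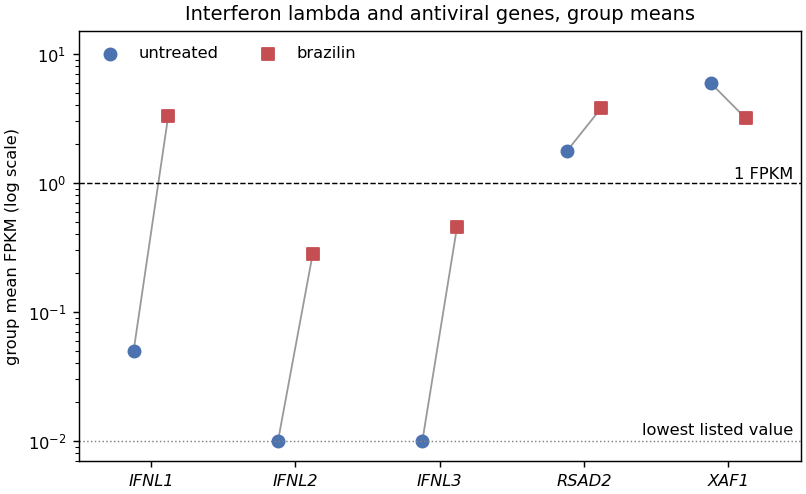
Group mean FPKM on a log scale in untreated cells (circles) and with brazilin (squares), each point the authors' mean of 2 samples with no error given, with dashed and dotted lines at 1 FPKM and at the lowest listed value of 0.01 FPKM. IFNL1 goes from 0.05 to 3.32 FPKM, IFNL2 and IFNL3 stay under 1 FPKM, RSAD2 is higher and XAF1 lower with brazilin.

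In untreated cells the order of levels was XAF1, RSAD2, IFNL1 and IFNL3. With brazilin it was RSAD2 at 3.825, IFNL1 at 3.32, XAF1 at 3.17 and IFNL3 at 0.455 FPKM. The spread between samples is not known, so the order of the first 3 after brazilin is not resolved. The direction of change went with transcript length across the brazilin table: 73.9% of genes in the shortest of 5 equal classes were higher, and 21.1% in the longest. IFNL1, IFNL2 and IFNL3 fall in the shortest class. RSAD2 and XAF1, with longest transcripts of 3519 and 3623 bases, fall in the same middle class, in which 44.1% were higher, and they went opposite ways. The part of transcript length in these changes was not tested.

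The 149 listed genes under 0.1 FPKM in untreated cells had a median level of 0.22 FPKM with brazilin. Of these, 6 reached 1 FPKM there, and 3, IFNL1 among them, reached its 3.32 FPKM. Genes nearest to each member were found by the Euclidean distance of log2 untreated and log2 brazilin FPKM, over these 2 group means alone. IFNL1 was nearest to the histone gene H2BC6 (0.065 and 3.655 FPKM, distance 0.40), the small GTPase gene ARL14 (0.075 and 2.02 FPKM, distance 0.93) and the transcription factor gene EGR2 (0.08 and 2.10 FPKM, distance 0.95). IFNL3 was nearest to CKMT1B, a mitochondrial creatine kinase gene with a near-identical copy, at a distance of 0.34, and to the crystallin gene CRYBA2 and the bile acid receptor gene NR1H4, both at 0.36. These genes were also at 0.01 FPKM in untreated cells. RSAD2 was nearest to FABP6, OSR2 and SH2D5, at 0.07 to 0.08, and XAF1 to PCMTD1, TMEM106B and PCDHGB1, at 0.03 to 0.06.

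**Figure D3:**
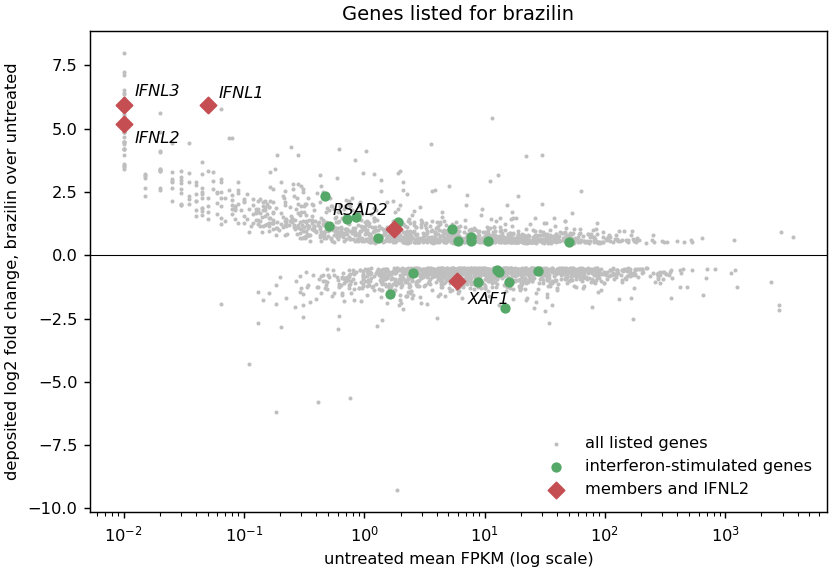
Deposited log2 fold change with brazilin against untreated mean FPKM on a log scale for the 2885 listed genes (grey), the 22 listed interferon-stimulated genes (green) and IFNL1, IFNL2, IFNL3, RSAD2 and XAF1 (red). The interferon lambda genes lie at the far left, where untreated levels are under 0.1 FPKM, and RSAD2 and XAF1 lie on opposite sides of 0 at middling levels.

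Near these loci, the listed coding genes were the interferon lambda genes themselves. Within 100 kb of IFNL1 there are 9 other protein-coding genes in the RefSeq table, and the 2 listed with brazilin were IFNL2 and IFNL3. Neither of the 2 protein-coding neighbours of RSAD2 and none of the 3 of XAF1 was in the brazilin table. Over all protein-coding genes 14.3% were listed, so counts this small show nothing particular to these loci. This distance was chosen after the values were seen.

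Around the members, which they include, 10 fixed lists of the interferon pathway hold 174 genes, of which 40 (23.0%, beside 14.3% over all protein-coding genes) were listed with brazilin, 25 of them higher and 15 lower (62.5% higher, median log2 fold change 0.55). Over all listed genes 47.6% were higher, with a median of -0.51. The 4 members and the lists were chosen with earlier results of these data known, so the members raise the listed share by construction. The 14.3% also takes in genes whether or not these cells express them. Marker lists outside the pathway had shares of 33.3% (leukocytes), 22.2% (endothelium and fibroblasts) and 37.5% (genes well expressed in this line). Of 5 genes low in this line 0 were listed. The 23.0% is therefore not read as particular to the pathway. When the ratio of group means replaced the deposited fold change, again with a minimum of 0.5 on the log2 scale, the pathway counts were 25 higher and 9 lower (73.5% higher), beside 58.4% higher over all listed genes. The 6 genes that dropped out, all lower, were EPSTI1, EIF2AK2, TRIM5, XIAP, JAK2 and MAVS, with log2 ratios of -0.36, -0.33, -0.45, -0.46, -0.47 and -0.499. The single lists that follow are short, and their counts stand beside the same 14.3% listed, and 47.6% higher among listed genes. Listed pathway genes that were higher had a median longest transcript of 2569 bases, and those that were lower one of 4603 bases. The part of that difference in the split was not tested.

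Upstream of the interferon genes, 2 of 18 sensors and adaptors were listed (11.1%, no more than over all genes) and both fell, as 52.4% of listed genes did. DDX58, which encodes the viral RNA sensor RIG-I, went from 27.8 to 19.1 FPKM (log2 -0.63, q = 2.97e-20) and MAVS, the mitochondrial adaptor through which it signals, from 19.7 to 14.0 FPKM (log2 -0.59). Of 8 interferon regulatory factor genes 2 were listed (25.0%) and both rose. IRF7, which drives interferon genes, went from 7.675 to 14.4 FPKM (log2 0.71, interval 0.47 to 0.94) and IRF5 from 1.225 to 2.005 FPKM (log2 0.60, interval 0.11 to 1.10). NF-kB subunits and their feedback inhibitors had 4 of 10 genes listed (40%), all higher. TNFAIP3, the ubiquitin-editing inhibitor A20, rose by 1.70 on the log2 scale and NFKBIE, an inhibitor of the IkB family, by 1.13, while NFKB2 and NFKBIB rose by 0.60 and 0.55.

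Downstream, neither chain of the interferon lambda receptor was listed. Of 6 receptor genes 1 was listed (16.7%), IFNGR1, a chain of the interferon gamma receptor, which fell from 33.8 to 22.6 FPKM (log2 -0.67). Of 6 genes of the receptor kinases and their transcription factors 1 was listed (16.7%), JAK2, a kinase of the interferon gamma receptor, at 1.425 and 1.03 FPKM (log2 -0.55). Inhibitors of receptor signalling had 3 of 9 genes listed (33.3%), all higher. SOCS1, which blocks the kinases, went from 1.02 to 2.665 FPKM (log2 1.31, interval 0.57 to 2.05), and SOCS3, a related inhibitor, from 12.2 to 22.1 FPKM (log2 0.74). USP18, which removes ISG15 from proteins and dampens type I interferon receptor signalling, went from 1.30 to 2.19 FPKM (log2 0.68, q = 0.0455), and it has a near-identical copy in USP41P.

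Interferon-stimulated genes went both ways, and the counts include RSAD2 and XAF1, which were chosen with earlier results known. Of 81 fixed genes 22 were listed (27.2%, beside 14.3% over all protein-coding genes, expressed in these cells or not). Of these 13 were higher and 9 lower, or 59.1% higher beside 47.6% over all listed genes, with a median log2 fold change of 0.55. By the ratio of FPKM means 13 were higher and 6 lower, or 68.4% higher beside 58.4% over all listed genes. Chemokine genes were among the largest rises. CXCL10 and CXCL11, whose products attract T cells through CXCR3, went from 0.47 to 2.51 FPKM (log2 2.33, interval 1.42 to 3.23) and from 0.855 to 2.60 FPKM (log2 1.51, interval 0.83 to 2.20), starting from low values. CCL5, another T cell chemokine gene, went from 1.91 to 4.91 FPKM (log2 1.31). GBP5, an interferon-induced GTPase gene, and BATF2, a transcription factor gene, rose by 1.42 and 1.17 from 0.72 and 0.505 FPKM, both low.

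The other genes of this list that rose had smaller log2 fold changes, RSAD2 among them. APOL2, of the apolipoprotein L family, rose by 1.05 on the log2 scale. MX1, a dynamin-like GTPase that blocks incoming viruses, went from 7.735 to 12.03 FPKM (log2 0.55). IFI6 and PARP12, an ADP-ribosyltransferase gene, each rose by 0.55, and LY6E, a membrane-anchored protein gene, by 0.52. USP18 and IRF7 are also in this list, with the values given above.

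The genes of this list that fell, XAF1 among them, included the restriction factor genes TRIM22 and TRIM5. LAMP3, a lysosomal membrane protein gene, showed the largest fall of the list, from 14.8 to 4.06 FPKM (log2 -2.09, interval -2.34 to -1.84). TRIM22, which limits several viruses, went from 1.645 to 0.605 FPKM (log2 -1.52), the latter a low value, and TRIM5, which targets retroviral capsids, fell by 0.64. SLFN5, of the schlafen family, went from 15.8 to 8.04 FPKM (log2 -1.07). TNFSF10, which encodes the death ligand TRAIL, went from 8.765 to 4.505 FPKM (log2 -1.05, interval -1.36 to -0.74). EPSTI1 fell by 0.70 and EIF2AK2, the double-stranded RNA sensor kinase PKR, by 0.56, though the ratios of their FPKM means gave log2 values of -0.36 and -0.33. DDX58 is also in this list.

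**Figure D4:**
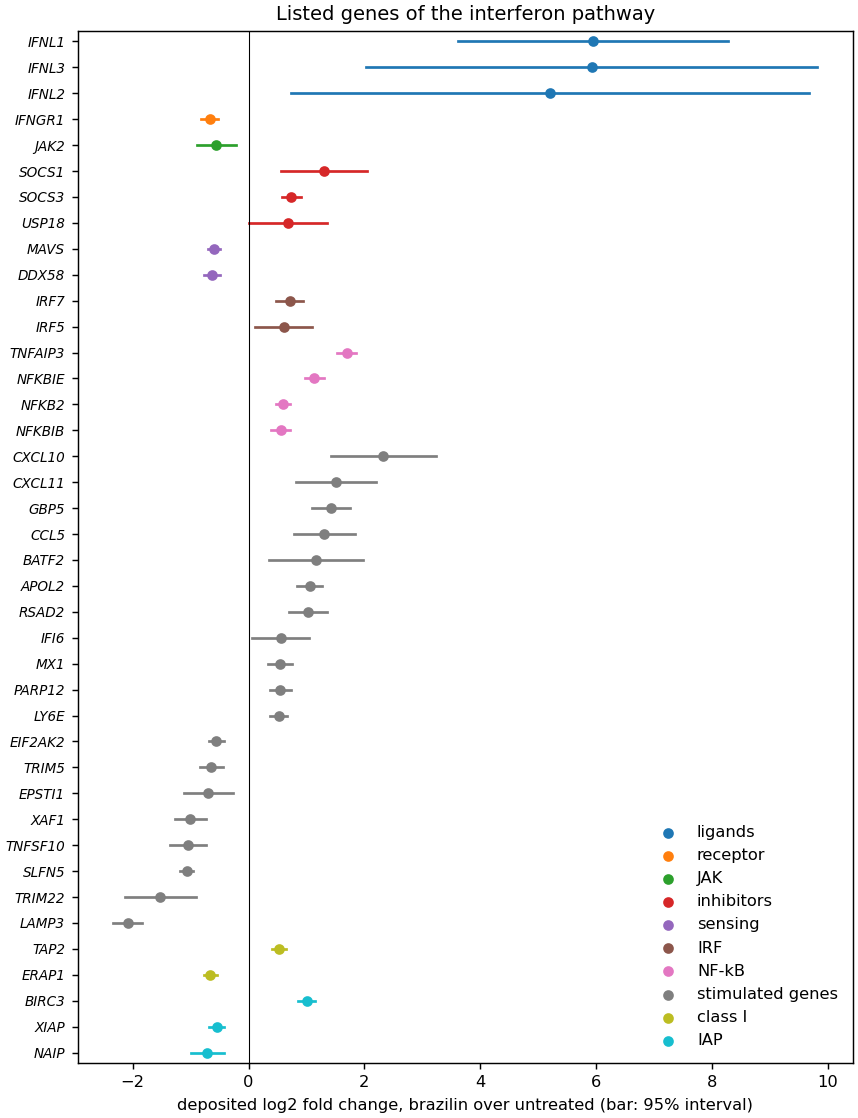
Deposited log2 fold change with brazilin and its 95% interval for the 40 listed genes of the fixed interferon pathway lists, coloured by role, each gene shown once. Listed NF-kB, interferon regulatory factor and inhibitor genes lie above 0 and the sensing genes below it, the stimulated genes lie on both sides, and the wide intervals of IFNL2 and IFNL3 start from the lowest listed FPKM.

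The ISRE core was common near the starts of the fixed interferon-stimulated genes, whichever way they went. Windows were at hand for 59 of the 81 genes, and 39 of these (66.1%) held it at 1 start or more, against 4.38% of 27305 genes. Among listed genes with a window, it was found in 5 of 7 that were higher and in 4 of 6 that were lower. RSAD2 is one of the former, and XAF1 is a lower gene with no match.

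Genes tied to XAF1 or to antigen display were listed in small numbers. XIAP, the partner of XAF1, went from 16.0 to 11.6 FPKM (log2 -0.55), lower as XAF1 was. Of 7 inhibitor-of-apoptosis genes 3 were listed (42.9%), with NAIP at a log2 fold change of -0.71 and BIRC3, which acts in NF-kB signalling, higher by 1.00. Class I antigen presentation had 2 of 15 genes listed (13.3%, near the 14.3% over all protein-coding genes). TAP2, a chain of the peptide transporter, rose by 0.53 (0.83 by the ratio of FPKM means), and ERAP1, a peptide-trimming enzyme gene, fell by 0.66.

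The members have no values for the derivatives, since none was called there, so brazilin cannot be set against acetylated or methylated brazilin for them, and their absence does not show that they did not change. The acetylated table lists 193 genes, 187 of them protein-coding (0.933% of the RefSeq total), with 62.2% of the listed genes higher and 37.8% lower. It holds 3 of the 81 interferon-stimulated genes and no other pathway gene, and the methylated table, with 11 genes (0.0549%), holds none. These comparisons share the untreated samples. The 3 genes were also listed with brazilin. CCL5 was 3.19 FPKM with acetylated brazilin and 4.91 FPKM with brazilin, from 1.91 FPKM in untreated cells. TNFSF10 was 5.27 and 4.505 FPKM, from 8.765 FPKM, and LY6E was 70.8 and 75.7 FPKM, from 49.8 FPKM. The log2 fold change with brazilin minus that with acetylated brazilin was 0.55 for CCL5 (interval -0.37 to 1.47), -0.30 for TNFSF10 (interval -0.74 to 0.15) and 0.01 for LY6E (interval -0.21 to 0.23). None passed the threshold in the two-sided test from q-derived errors (adjusted p = 0.402, 0.336 and 0.967 over 84 shared genes), which does not show that the compounds act alike. That test treats the comparisons as independent. With a covariance for the shared untreated samples the adjusted p of this test were 0.252 for CCL5, 0.120 for TNFSF10 and 0.945 for LY6E. That covariance was assumed from the smaller q-derived error, not estimated, and the intervals above leave it out.

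Markers of other cells were also listed with brazilin. Of 12 leukocyte markers 4 were listed (33.3%, beside 14.3% over all protein-coding genes). All 4 were higher, beside 47.6% over all listed genes. CD68, which many cell types express, went from 50.8 to 81.6 FPKM, CD8A from 0.965 to 1.635, ITGAM from 0.055 to 0.385 and CD79A from 0.065 to 0.495 FPKM, while PTPRC, the general leukocyte marker, was not listed. ITGAM and CD79A were under 0.1 FPKM in untreated cells, where 148 of 149 listed genes were higher. The part of these markers in the interferon results was not tested. Of 9 endothelial and fibroblast markers 2 were listed (22.2%), PECAM1 lower and KDR higher. Of 8 genes known to be well expressed in MDA-MB-231 cells 3 were listed (37.5%, beside the same 14.3%). CD44 rose from 132 to 226 FPKM (log2 0.55) and CAV1 from 180 to 276 FPKM (log2 0.53). FN1 fell from 356 to 119 FPKM (log2 -1.67). None of 5 genes known to be low in this line was listed. The unlisted genes of both sets have no value here.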

How the data were processed

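RNA sequencing of 8 samples was processed by BGI Americas, per the labels, and DESeq2, RSEM, StringTie, HISAT and Bowtie are named in the submitters' processing notes, unversioned and without roles, beside the builds GRCh38, hg38 and mm10. Per the file headers, the authors deposited, for each gene called, mean FPKM per group, the log2 fold change and its q-value. All q-values are under 0.05 and all absolute log2 fold changes at least 0.5, the apparent criteria. FPKM means move in steps of 0.005. The untreated FPKM means were equal for all 84 and 5 genes that the derivative tables share with brazilin. By their sign against the FPKM means, the deposited log2 values are treated over untreated, and they lay a median of 0.09 below the log2 FPKM ratio for brazilin.

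Standard errors were the absolute log2 fold change over the normal quantile of the q-value taken as a two-sided p. The difference test between compounds was adjusted by Benjamini-Hochberg over shared genes. It was checked only on simulated data with independent errors and planted differences larger than those of CCL5, TNFSF10 and LY6E. That check therefore does not show how the test performs on these genes, whose comparisons share the untreated samples. The members and gene lists were chosen with earlier results of these data known. Text names the members, every listed gene of the 10 pathway lists and the 3 nearest genes of each member, besides the marker genes. All 208 list symbols matched a RefSeq GRCh38.p14 gene ID. Transcript lengths and coding sequences came from GENCODE release 29, with lengths for 2870 of the 2885 brazilin genes. Copies were sought with BLAST+ 2.17.0 at an identity of at least 98% over at least 80% of the length. Promoter windows are RefSeq, GRCh38.p14. Python 3.11.15 and scipy 1.17.1 were used.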

Additional observations from a re-analysis of the deposited data

How the results depend on the processing

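Of 24 alternative settings for the 4 members 23 kept the direction and the call, over ratios of FPKM means, pseudocounts of 0.1 and 1, q-values under 0.01 and 0.001 and a shift by the median offset. IFNL3 (log2 fold change 5.92, q = 0.00289) was no longer called at q under 0.001. None of these settings turned a direction, but most of them could not have done so. The q thresholds leave the log2 value as it is, and the shift was far smaller than the change of any member. A pseudocount added to both means cannot reverse their order, so only the ratio of FPKM means was open on direction. Every setting also kept the deposited q-value for the call. Pseudocounts of 0.1 and 1 FPKM moved the log2 value of IFNL1 from 5.95 to 4.51 and 2.04, and that of IFNL3 to 2.33 and 0.53. IFNL2, which is no member, lost its call at q under 0.01 and with a pseudocount of 1, where its log2 value was 0.34.

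With a minimum of 1 on the log2 scale the interferon-stimulated genes gave 7 higher and 5 lower with brazilin (58.3% higher). The pathway lists together gave 14 and 5 (73.7% higher). Over the whole brazilin table, 533 genes that rose and 277 that fell met this minimum. The share of rises was thus smaller among the interferon-stimulated genes than over the whole table, the reverse of the order without this minimum. For the pathway lists together it stayed larger. By the ratio of FPKM means the pathway lists gave 9 lower. With acetylated brazilin 1 interferon-stimulated gene was higher at q under 0.01 and under 0.001, and 0 were higher and 0 lower with a log2 minimum of 1, with the same counts for all pathway lists. The q thresholds and the log2 minimum can only remove genes. The shift by the median offset and the lists without near-identical copies were added after the data were seen.

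No paired analysis was possible because the files hold group means, with no column per replicate, and leaving out a replicate was not run because it needs the same columns. The depth is unknown, and IFNL2 and IFNL3 are among 389 listed genes that stayed under 1 FPKM in both groups.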
